A study of Mus musculus with 6 samples.

Results

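The collagen chain genes are the genes that encode the alpha chains of the collagens. They were chosen by name: every gene whose single symbol in the platform annotation had the form of a collagen chain symbol, such as Col1a1. This gave 42 genes of 18194 with a single symbol, made up of 11 fibrillar chains, 6 basement membrane chains and 25 other chains. Each gene was represented by its probe set with the highest mean signal over the 6 arrays. Signals of 33 chains were above the filter on low values and were tested, 11 fibrillar, 4 basement membrane and 18 other, among 12918 genes tested in all. Listed chains without a probe set of a single symbol, Col6a6, Col21a1 and Col28a1, were not analysed here.

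Expression was measured on 1-colour Affymetrix mouse arrays in mouse embryo fibroblasts, the connective tissue cells that grow out of a dissociated embryo. The cells were 2 primary cultures, each from 1 embryo taken at embryonic day 15.5 from ICR mice, an outbred strain, and the labels name no engineered allele. HS+LPS cells were held at 42 °C for 1 h and then given 1 μg/ml of Escherichia coli lipopolysaccharide (LPS), a bacterial outer membrane glycolipid, for 4 h. LPS cells received the same LPS for 4 h without the heat shock, and Control cells stayed at 37 °C with neither agent. All cells grew in medium with fetal bovine serum. Each group held 1 array of culture 2 and 1 array of culture 1, so that the 3 groups share the same embryos, and 2 embryos limit how far the values carry to other animals. A group with heat shock and no LPS was not analysed here.

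Collagen alpha chains wind around each other into a long helix that is assembled in the endoplasmic reticulum, secreted and built into extracellular matrix. Fibrillar chains make the banded fibrils of skin, tendon, bone and cartilage. Type IV chains make the sheet-like network of basement membranes. The other chains include beaded filaments (type VI), short-chain networks (types VIII and X), anchoring fibrils (type VII), chains that sit on the surface of fibrils, membrane-spanning chains, and the multiplexins of basement membrane zones (types XV and XVIII). Fibroblasts are the main source of the type I, III, V and VI collagens in connective tissue.

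Signals are the deposited linear intensities, which had a common trimmed mean on all arrays. Array medians were 11.9 to 14.4 and the highest signals 6931 to 8434. The noise level of an array was its brightest Bacillus subtilis control probe set, 6 to 7.67. In what follows the 2 values of a group are those of culture 2 and then culture 1, and a difference is on the scale of log2(intensity + 3.37). Signals of different probe sets share no common scale, so no chain's level is set against another's. These are bulk cultures, in which fewer cells of a type and less RNA per cell cannot be told apart. The p-values are limma's, adjusted by Benjamini-Hochberg over all 12918 genes, and rest on 2 cultures. The fit without a culture term counts differences between the cultures as error. The fit with the culture as a block takes them out, so that its p-values rest on how alike the group differences were in the 2 cultures. These p-values are given wherever they fall on the other side of 0.05.

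The chains under the filter and not tested were the type IV chains Col4a3 and Col4a4, the type VI chains Col6a4 and Col6a5, Col9a2, Col13a1, Col17a1, Col25a1 and Col26a1, with single values of 0.451 to 17.15 over the 6 arrays. Col9a2, Col13a1, Col17a1 and Col6a5 were at or under the noise level on all 6 arrays, and the other untested chains were above it on 1 to 4 of the 6. By contrast, 14 chains exceeded a mean signal of 500 in at least 1 group. They were Col1a1, Col1a2, Col3a1, Col5a1 and Col5a2 of the fibrillar class, Col4a1, Col4a2 and Col4a5 of the basement membrane class, and Col6a1, Col6a2, Col6a3, Col8a1, Col12a1 and Col18a1 of the others.

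**Figure D1:**
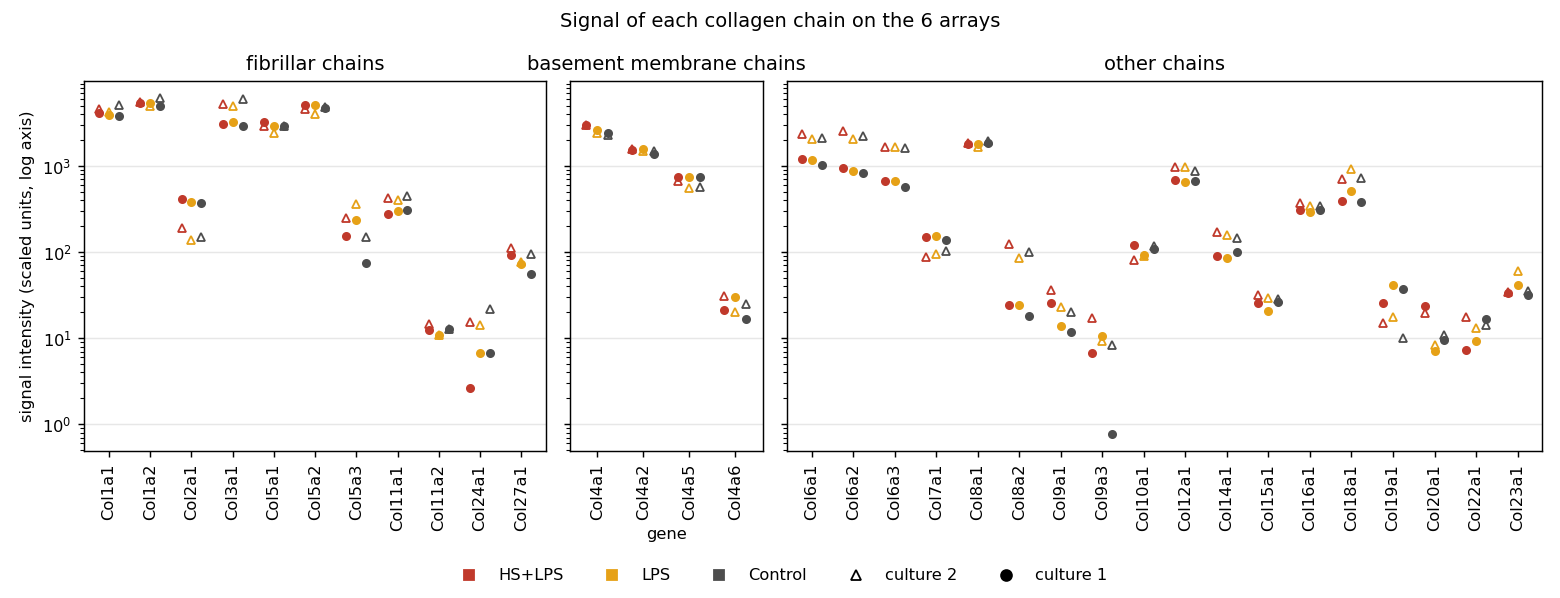
Signal intensity (scaled units, log axis) of the 33 tested chains on each of the 6 arrays, by class. Colours are the groups HS+LPS, LPS and Control, open triangles are culture 2 and filled circles culture 1. For Col6a1, Col6a2, Col6a3, Col8a2 and Col3a1 the triangles lie above the circles in every group, while for Col2a1 and Col7a1 they lie below.

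The comparison of HS+LPS with LPS asks what the preceding heat shock did to chain expression in LPS-treated cells. No chain passed the test without the block: 0 of 33, where 1.35% of all genes passed, and 2 chains had an unadjusted p under 0.05, where 16.8% of all genes did. With the culture as a block 4 chains passed, where 19% of all genes passed. Col4a1 and Col20a1 rose, against 6.32% of all genes higher, and Col5a3 and Col18a1 fell, against 12.6% of all genes lower. The median difference of the 33 chains was 0.10, within a range of -0.58 to 1.17, and that of all genes was -0.05. In the fit without the block the chains' median moved when 1 array was left out. It was 0.28 without HS+LPS of culture 1, -0.03 without HS+LPS of culture 2, 0.05 without LPS of culture 1 and 0.17 without LPS of culture 2. Such a fit sets 1 culture in a group against both cultures in the other. The difference between the cultures, culture 2 minus culture 1 at a median of 0.24 for the chains, therefore enters it. This holds wherever 1 array is left out below. With quantile normalization the chains' median was 0.04. The class medians were 0.10 for fibrillar, 0.09 for basement membrane and 0.09 for other chains. The difference was under 0.5 in size for 29 of the 33 chains (87.9%) and for 77% of all genes. In both cultures 17 chains were higher with HS+LPS and 5 were lower, where 31% of all genes were higher and 40.7% lower. The groups did not overlap for 6 chains that were higher and 1 that was lower, against 17.9% and 28.8% of all genes.

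LPS against Control asks what the stimulus alone did. Again 0 of 33 chains passed without the block, where 0.147% of all genes passed, and 1 chain had an unadjusted p under 0.05, against 4.87% of all genes. With the block Col5a3 and Col18a1 rose and 0 chains fell, where 2.74% of all genes passed, 2.04% higher and 0.704% lower. The median over the chains was -0.02, in a range of -0.39 to 1.44, against -0.05 for all genes. It was 0.07 without LPS of culture 1, -0.13 without LPS of culture 2, -0.18 without Control of culture 1, 0.16 without Control of culture 2 and 0.01 with quantile normalization. Class medians were -0.09 for fibrillar, 0.10 for basement membrane and 0.04 for other chains. Of the 33 chains 30 (90.9%) differed by under 0.5, as did 89.3% of all genes. In both cultures 9 chains were higher with LPS and 9 were lower, where 24.7% of all genes were higher and 38.5% lower. The groups did not overlap for 4 chains that were higher and 6 that were lower, against 13.2% and 18.3% of all genes.

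HS+LPS against Control combines both treatments and shares its arrays with the other comparisons. Without the block 0 of 33 chains passed, where 0.178% of all genes passed, and 2 had an unadjusted p under 0.05, against 16.2% of all genes. With the block Col4a1 and Col5a3 rose and 0 chains fell, where 17.1% of all genes passed, 5.06% higher and 12.1% lower. The median over the chains was 0.06, in a range of -0.60 to 1.05, against -0.09 for all genes. It was 0.19 without HS+LPS of culture 1, -0.03 without HS+LPS of culture 2, -0.02 without Control of culture 1 and 0.17 without Control of culture 2. The class medians were 0.01 for fibrillar, 0.19 for basement membrane and 0.04 for other chains. In both cultures 15 chains were higher and 3 were lower, where 25% of all genes were higher and 46.8% lower. The groups did not overlap for 5 chains that were higher and 1 that was lower, against 14.3% and 31.1% of all genes.

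**Figure D2:**
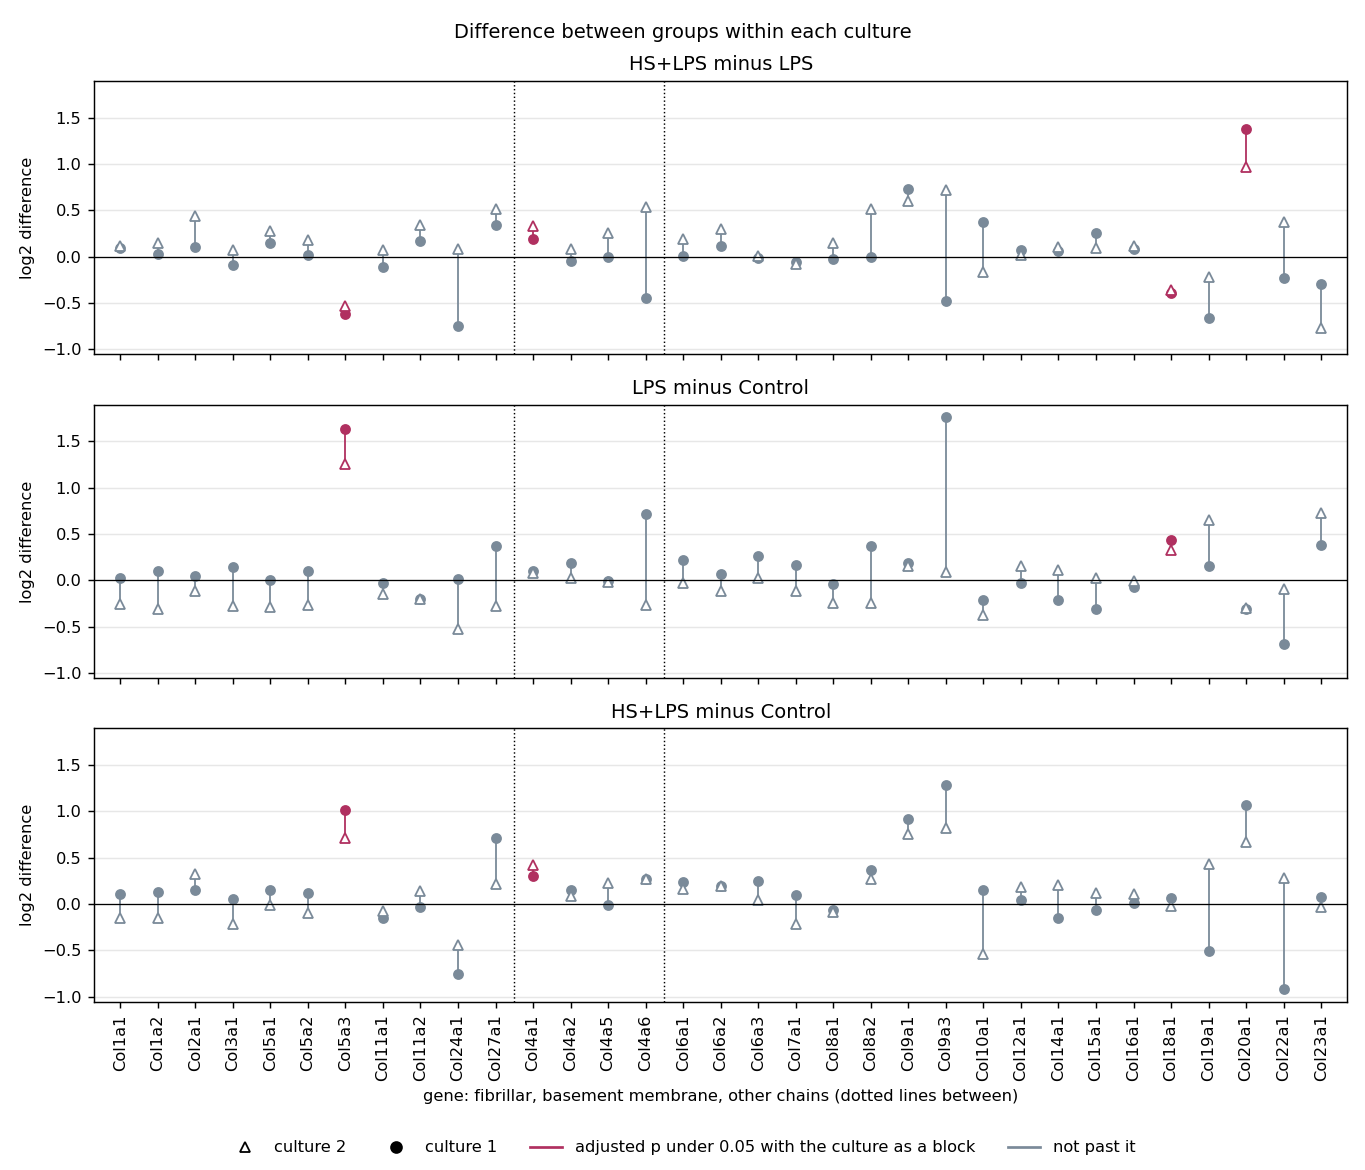
Difference on the log2 scale between groups within culture 2 (open triangles) and culture 1 (filled circles), for the 33 tested chains ordered by class, in 3 comparisons. Red marks chains with an adjusted p under 0.05 with the culture as a block: 4 for HS+LPS minus LPS, 2 for LPS minus Control and 2 for HS+LPS minus Control. Most chains lie near 0 in all 3, and Col5a3 stands at 1.25 and 1.63 with LPS.

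Among the fibrillar chains, Col5a3 was higher with LPS and lower again with the heat shock before it. Col5a3 encodes the alpha3 chain of type V collagen, a minor fibrillar collagen that takes part in the start of fibril assembly. Its gene lies on chromosome 9. Its signal was 250.2 and 152.4 in HS+LPS cells, 363.8 and 235.9 in LPS cells, and 151.2 and 73.87 in Control cells. The order of the 3 groups was the same in both cultures, LPS highest and Control lowest, while culture 2 was above culture 1 in each group. LPS cells had 2.71-fold the Control level (log2 difference 1.44, SE 0.42; 1.25 in culture 2 and 1.63 in culture 1). This did not pass without the block (limma adjusted p = 0.715) and passed with it (adjusted p = 0.000393, block SE 0.12, 95% interval 1.16 to 1.72). HS+LPS cells had 0.67 times the LPS level (log2 difference -0.58; -0.53 in culture 2 and -0.62 in culture 1; limma adjusted p = 0.551, with the block 0.0132). They stayed above Control with the block (log2 difference 0.86, limma adjusted p = 0.386, with the block 0.00274). Its partners in type V collagen, Col5a1 and Col5a2, differed by -0.15 and -0.09 between LPS and Control. The Col5a3 to Col5a1 ratio was higher with LPS than in Control by 1.54 in culture 2 and 1.63 in culture 1 on the log2 scale, and for HS+LPS against LPS it differed by -0.81 and -0.77; this ratio was not tested. The other Col5a3 probe set was at or under the noise level, so 1 probe set carries these values. In the fit without the block, leaving out 1 array of either culture moved the sizes and not the directions: 0.94 to 1.94 for LPS against Control, -0.93 to -0.23 for HS+LPS against LPS, and 0.36 to 1.36 for HS+LPS against Control.

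The promoter window of Col5a3 is shown because it had the largest difference with LPS of the 33 tested chains. It covers 250 bases before to 50 bases after the start assigned in the RefSeq promoter set (GRCm38.p6), chr9:20815018-20815317, minus strand. The gene's own coordinates reach 20815117, upstream of the assigned start, and motif positions are counted from the assigned start. The window is read 5′ to 3′ along the gene, with the matches to the searched motifs in capitals.
Col5a3: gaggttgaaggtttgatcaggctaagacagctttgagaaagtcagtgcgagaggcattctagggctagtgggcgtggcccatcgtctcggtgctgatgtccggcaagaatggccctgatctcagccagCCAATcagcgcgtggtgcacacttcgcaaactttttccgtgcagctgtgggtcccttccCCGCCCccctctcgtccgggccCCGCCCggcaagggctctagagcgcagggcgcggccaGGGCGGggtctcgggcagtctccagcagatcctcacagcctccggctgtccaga
The motifs, searched on both strands, were CCAAT (the CCAAT box), GGGCGG (the GC box bound by Sp1), GAANNTTC (a pair of heat shock element units) and the NF-kB consensus, the last added after the values were seen. The Col5a3 window held 1 CCAAT, beginning 122 bases before the start, and 3 GGGCGG, beginning 63, 41 and 4 bases before it, the first and second on the opposite strand. It held 0 matches to GAANNTTC and 0 to the NF-kB consensus. Over all 32851 windows of the same length, 37.4% held CCAAT, 35.7% GGGCGG, 7.86% GAANNTTC and 4.51% the NF-kB consensus. Windows were found for 33 of the 42 chains, and 13, 21, 1 and 4 of these 33 chains held those motifs in that order. A match describes the letters only, and their part in the expression values was not tested.

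The main fibrillar chains of fibroblasts differed little between groups. Col1a1 and Col1a2 encode the alpha1 and alpha2 chains of type I collagen, the most abundant collagen of skin, tendon and bone. Col1a1 read 4608 and 4140 in HS+LPS cells, 4263 and 3888 in LPS cells, and 5119 and 3830 in Control cells. Col1a2 read 5567 and 5462 in HS+LPS cells, 5005 and 5352 in LPS cells, and 6197 and 5000 in Control cells. The groups of both genes overlapped or lay close together, and the 2 Control cultures differed from each other more than the groups did. For HS+LPS against LPS the difference was 0.10 (95% interval -0.28 to 0.49, limma adjusted p = 0.809) for Col1a1 and 0.09 (-0.21 to 0.39, adjusted p = 0.776) for Col1a2. For LPS against Control it was -0.12 (-0.51 to 0.26) and -0.10 (-0.41 to 0.20), both with an adjusted p of 0.999. A dimmer Col1a1 probe set, at 83.53 to 231.4, gave 0.59 and -0.62 in these comparisons, the second with opposite signs in the 2 cultures.

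Col3a1, the chain of type III collagen found beside type I in skin and vessels, read 5259 and 3070 in HS+LPS cells, 5008 and 3268 in LPS cells, and 6087 and 2956 in Control cells. It was higher in culture 2 in each group, and the groups overlapped. Its difference between HS+LPS and LPS was -0.01 (95% interval -1.05 to 1.03, with the block -0.23 to 0.21), and between LPS and Control -0.07 (-1.11 to 0.97, with the block -0.29 to 0.15). With quantile normalization and the block together, a setting added after the data were seen, it passed for HS+LPS against LPS with a difference of -0.19 (limma adjusted p = 0.0347). Col5a1 and Col5a2 form the most common heterotrimer of type V collagen, which regulates fibril width. Col5a1 read 2897 and 3222 in HS+LPS cells, 2390 and 2902 in LPS cells, and 2927 and 2909 in Control cells, with a difference of 0.21 between HS+LPS and LPS (95% interval -0.09 to 0.52, limma adjusted p = 0.462). Its mean over 3 probe sets passed with the block in a setting added later (0.26, adjusted p = 0.0395). Col5a2 read 4567 and 5145 in HS+LPS cells, 4032 and 5076 in LPS cells, and 4880 and 4746 in Control cells, and differed by 0.10 between HS+LPS and LPS (-0.23 to 0.43). Its other probe set had the opposite sign (-0.22).

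The remaining fibrillar chains, Col2a1 and Col11a1 and Col11a2 of cartilage fibrils and the minor chains Col24a1 and Col27a1, did not pass in any of the 3 comparisons in either fit. Col27a1 had the largest positive difference of the 11 fibrillar chains between HS+LPS and LPS, 0.42 (95% interval -0.24 to 1.08, with the block 0.01 to 0.83, limma adjusted p = 0.502). It read 111 and 92.96 in HS+LPS cells, 77.19 and 72.89 in LPS cells, and 94.56 and 55.67 in Control cells. The other Col27a1 probe set, also above the filter, gave -0.03 for HS+LPS against LPS. For LPS against Control that probe set gave 0.58 and the brightest 0.04. Col24a1 was above the noise level on 4 of the 6 arrays.

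Of the basement membrane chains, Col4a1 was higher with HS+LPS while its partner Col4a2 was near 0. Col4a1 and Col4a2 encode the alpha1 and alpha2 chains of the type IV heterotrimer found in nearly all basement membranes. Col4a1 read 3026 and 3011 in HS+LPS cells, 2401 and 2633 in LPS cells, and 2266 and 2450 in Control cells. Both HS+LPS arrays were above all 4 others. Against LPS the difference was 0.26 (1.20-fold, SE 0.10; 0.33 in culture 2 and 0.19 in culture 1), with limma adjusted p = 0.262 and 0.0339 with the block. Against Control it was 0.36 (1.28-fold; adjusted p = 0.168, with the block 0.0115). The size depends on the scaling: with quantile normalization the difference was 0.10 from LPS and 0.23 from Control. The call against LPS did not hold with the block and quantile normalization (adjusted p = 0.27) or the block and the mean of its 2 probe sets (adjusted p = 0.0667). The other Col4a1 probe set differed by 0.14 against LPS.

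Col4a2 read 1577 and 1526 in HS+LPS cells, 1497 and 1576 in LPS cells, and 1478 and 1379 in Control cells. HS+LPS and LPS overlapped, with a difference of 0.01 (95% interval -0.23 to 0.26, with the block -0.16 to 0.18, limma adjusted p = 0.962). The log2 ratio of Col4a1 to Col4a2 was higher with HS+LPS than with LPS by 0.26 in culture 2 and 0.24 in culture 1. Against Control it was higher by 0.32 and 0.15, and for LPS against Control it differed by 0.07 and -0.09. The ratio was not tested, and each chain is measured by a different probe set.

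The windows of this pair are shown because the genes lie head to head on chromosome 8 and share a promoter region. The starts assigned in the RefSeq promoter set (GRCm38.p6) are 21 bases apart and the windows overlap by 78 bases. By their own coordinates the genes overlap at these ends, since Col4a1 reaches 11312889 and Col4a2 begins at 11312805. Col4a1 is given for chr8:11312777-11313076, minus strand, and Col4a2 for chr8:11312555-11312854, plus strand, each 5′ to 3′ along its gene with the motif matches in capitals.
Col4a1: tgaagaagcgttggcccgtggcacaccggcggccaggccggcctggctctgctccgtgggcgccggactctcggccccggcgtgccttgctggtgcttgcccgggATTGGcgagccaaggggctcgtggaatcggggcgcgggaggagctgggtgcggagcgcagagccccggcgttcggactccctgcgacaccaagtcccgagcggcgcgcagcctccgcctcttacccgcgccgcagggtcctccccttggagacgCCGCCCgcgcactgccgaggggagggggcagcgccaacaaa
Col4a2: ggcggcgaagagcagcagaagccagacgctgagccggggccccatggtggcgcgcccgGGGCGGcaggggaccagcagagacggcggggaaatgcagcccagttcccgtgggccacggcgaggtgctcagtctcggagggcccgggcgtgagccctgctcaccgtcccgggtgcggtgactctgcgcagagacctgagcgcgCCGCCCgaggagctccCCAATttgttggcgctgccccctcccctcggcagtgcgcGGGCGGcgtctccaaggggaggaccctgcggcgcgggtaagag
The Col4a1 window held 1 CCAAT on the opposite strand, beginning 145 bases before the start, and 1 GGGCGG. The Col4a2 window held 1 CCAAT, beginning 32 bases before the start, and 3 GGGCGG. The GGGCGG at base 10 of Col4a1 and that at base 8 of Col4a2 are the same site read from its 2 strands. Neither window held GAANNTTC or the NF-kB consensus.

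Col4a5, an X-linked chain of the type IV network of kidney and other basement membranes, read 663 and 748.8 in HS+LPS cells, 555.5 and 751.3 in LPS cells, and 563.6 and 755.4 in Control cells. Culture 1 was above culture 2 in each group, and the group differences were 0.12 for HS+LPS against LPS and -0.01 for LPS against Control, neither past the threshold in either fit. Col4a6, its X-linked neighbour, read 16.92 to 30.66 over the 6 arrays and differed by 0.05 and 0.22 in these comparisons, with opposite signs in the 2 cultures.

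Among the other chains, Col18a1 was highest with LPS in both cultures and close to Control with HS+LPS. Col18a1 encodes the chain of type XVIII collagen, a multiplexin whose released end fragment is endostatin. Its signal was 716.5 and 393.4 in HS+LPS cells, 920.5 and 515 in LPS cells, and 729.1 and 377.9 in Control cells. Culture 2 was above culture 1 in each group, so that the groups overlapped. LPS against Control gave 0.39 (1.31-fold, SE 0.45; 0.33 in culture 2 and 0.44 in culture 1; limma adjusted p = 0.999, with the block 0.0372). HS+LPS against LPS gave -0.37 (0.772-fold; -0.36 in culture 2 and -0.39 in culture 1; adjusted p = 0.745, with the block 0.013), and HS+LPS against Control 0.02. The LPS call did not hold with the block and median centring or with the block and the mean of its 2 probe sets. The other probe set gave 0.35 for LPS against Control and -0.18 for HS+LPS against LPS. In the fit without the block the direction turned when 1 array was left out: HS+LPS against LPS became 0.06 without HS+LPS of culture 1 and 0.04 without LPS of culture 2. LPS against Control became -0.03 without LPS of culture 2 and -0.08 without Control of culture 1. Such a fit sets 1 culture in a group against both cultures in the other, and culture 2 was above culture 1 by 0.88 on average.

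Col20a1, a chain of the group that sits on fibril surfaces, was higher with HS+LPS from a level near noise. It read 19.44 and 23.89 in HS+LPS cells, 8.267 and 7.137 in LPS cells, and 10.97 and 9.645 in Control cells. Both HS+LPS arrays were above the other 4, which lay just over the noise level of 6 to 7.67. The difference from LPS was 1.17 (2.26-fold, SE 0.28; 0.97 in culture 2 and 1.38 in culture 1), with limma adjusted p = 0.12 and 0.0389 with the block. Against Control it was 0.87 (adjusted p = 0.219, with the block 0.108). Another probe set above the filter gave 1.36 for HS+LPS against LPS.

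Col9a1, a chain of cartilage type IX collagen, read 36.61 and 25.41 in HS+LPS cells, 23.06 and 14.01 in LPS cells, and 20.4 and 11.85 in Control cells. HS+LPS was the highest group in both cultures. Its difference was 0.66 against LPS (limma adjusted p = 0.434, with the block 0.106) and 0.83 against Control (adjusted p = 0.341, with the block 0.0565). Against Control it passed with the block and quantile normalization (adjusted p = 0.0471) and with the block and a pseudocount of 16 (adjusted p = 0.0468). The other Col9a1 probe set, also above the filter, did not share this pattern, and on it HS+LPS was highest in neither culture. It gave 0.47 against LPS (-0.41 in culture 2 and 1.35 in culture 1) and 0.03 against Control. Col23a1, a membrane-spanning chain, read 34.41 and 33.32 in HS+LPS cells, 60.93 and 41.92 in LPS cells, and 35.26 and 31.44 in Control cells. LPS was above both other groups in both cultures, but the differences, 0.56 for LPS against Control and -0.54 for HS+LPS against LPS, passed in neither fit (with the block adjusted p = 0.24 and 0.108). All 3 of its probe sets had the same signs in these comparisons, at 0.56 to 0.97 and -0.57 to -0.10. These chains were picked out after their values were seen.

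The type VI chains, whose heterotrimer of Col6a1, Col6a2 and Col6a3 forms beaded filaments around cells, varied by culture and little by group. Col6a1 read 2335 and 1198 in HS+LPS cells, 2044 and 1186 in LPS cells, and 2090 and 1016 in Control cells. Col6a2 read 2539 and 953 in HS+LPS cells, 2056 and 877.3 in LPS cells, and 2232 and 832.7 in Control cells. Col6a3 read 1679 and 672.4 in HS+LPS cells, 1668 and 678.2 in LPS cells, and 1637 and 565.9 in Control cells. In each gene the lowest culture 2 value was above the highest culture 1 value. The differences between HS+LPS and LPS were 0.10, 0.21 and 0.00 for Col6a1, Col6a2 and Col6a3, with 95% intervals with the block of -0.08 to 0.29, 0.03 to 0.39 and -0.19 to 0.19, and 0 of the 3 passed in either fit (with the block adjusted p = 0.417, 0.092 and 0.992).

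Col8a1, a short-chain network collagen of vessel walls and the eye, read 1854 and 1791 in HS+LPS cells, 1667 and 1815 in LPS cells, and 1970 and 1863 in Control cells. Its largest difference was -0.14 for LPS against Control (95% interval -0.38 to 0.11). Col12a1, which binds the surface of type I fibrils, read 987.6 and 685.6 in HS+LPS cells, 972.6 and 654.7 in LPS cells, and 873.3 and 668 in Control cells. It differed by 0.04 between HS+LPS and LPS (95% interval -0.61 to 0.70, with the block -0.14 to 0.23). The rest of this class, Col7a1, Col8a2, Col9a3, Col10a1, Col14a1, Col15a1, Col16a1, Col19a1 and Col22a1, passed in no comparison in either fit. Of these, Col9a3 was above the noise level on 4 arrays and Col22a1 on 5.

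**Figure D3:**
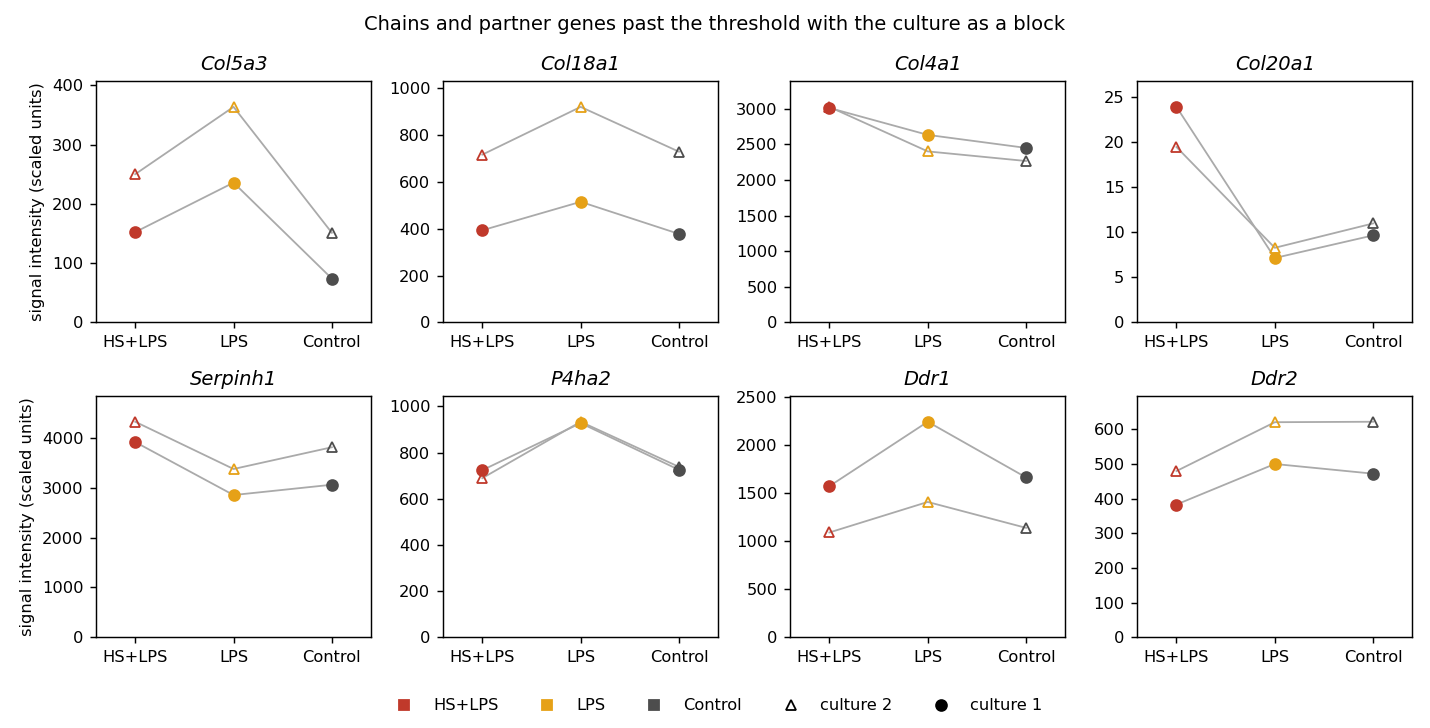
Signal intensity (scaled units, axes from 0) of the 4 chains and 4 partner genes past an adjusted p of 0.05 in at least 1 comparison with the culture as a block. Points are single arrays, open triangles for culture 2 and filled circles for culture 1, and grey lines join the arrays of a culture. Col5a3 and Col18a1 peak with LPS in both cultures, and Col4a1 and Col20a1 are highest with HS+LPS.

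The largest differences among the chains lay between the cultures, which are 2 embryos, and are given as values with no test. The cultures did not overlap over the 6 arrays for 17 of the 33 chains (51.5%), against 24.7% of all genes. Of these, 13 were above in culture 2, where 12.5% of all genes were, and 4 in culture 1, where 12.2% were. The mean difference between the cultures exceeded 1 on the log2 scale for 6 chains (18.2%), against 4.17% of all genes. The culture accounted for a median of 63.9% of a chain's variance over the arrays and the group for 14.5%, where the medians over all genes were 22.5% and 48.8%. Splitting 6 arrays into 3 groups takes up more variance than splitting them into 2 cultures, even with no effect. The shares of group and culture are therefore not on equal terms. By class, the cultures did not overlap for 5 of 11 fibrillar, 1 of 4 basement membrane and 11 of 18 other chains.

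Col8a2, the partner of Col8a1 in short-chain networks, differed most between the cultures. It read 122.6, 85.13 and 101.2 in culture 2 under HS+LPS, LPS and Control, against 24.5, 24.46 and 18.17 in culture 1, a mean log2 difference of 2.04. Col8a1 itself differed by 0.00. In the type VI chains culture 2 was above culture 1 by 0.93 for Col6a1, 1.35 for Col6a2 and 1.38 for Col6a3. Col6a1, Col6a2 and Col18a1 (0.88) are neighbours on chromosome 10, between 76595756 and 77166530 in GRCm38. Col24a1 (1.25), Col3a1 (0.81), Col14a1 (0.76), Col11a1 (0.51), Col12a1 (0.49), Col15a1 (0.27), Col1a1 (0.24) and Col16a1 (0.20) were also higher in culture 2 without overlap. The second probe set of Col3a1 gave 2.15, and a further probe set of Col14a1 gave 0.03.

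Fewer chains were higher in culture 1. Col2a1, the fibrillar chain of cartilage, read 189.4, 139.1 and 150.9 in culture 2 under HS+LPS, LPS and Control, against 409.3, 382.4 and 369.4 in culture 1, a mean difference of -1.27. Col19a1 (-1.12), Col7a1 (-0.62), the chain of the anchoring fibrils of skin, and Col4a5 (-0.34) ran the same way. Col1a2, Col5a1, Col5a2, Col4a1 and Col4a2 differed by -0.15 to 0.08 between the cultures, and their arrays overlapped. Further probe sets of Col5a1 (0.28 and 0.39) and Col5a2 (0.39) did not share the sign of the brightest ones (-0.14 and -0.15).

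**Figure D4:**
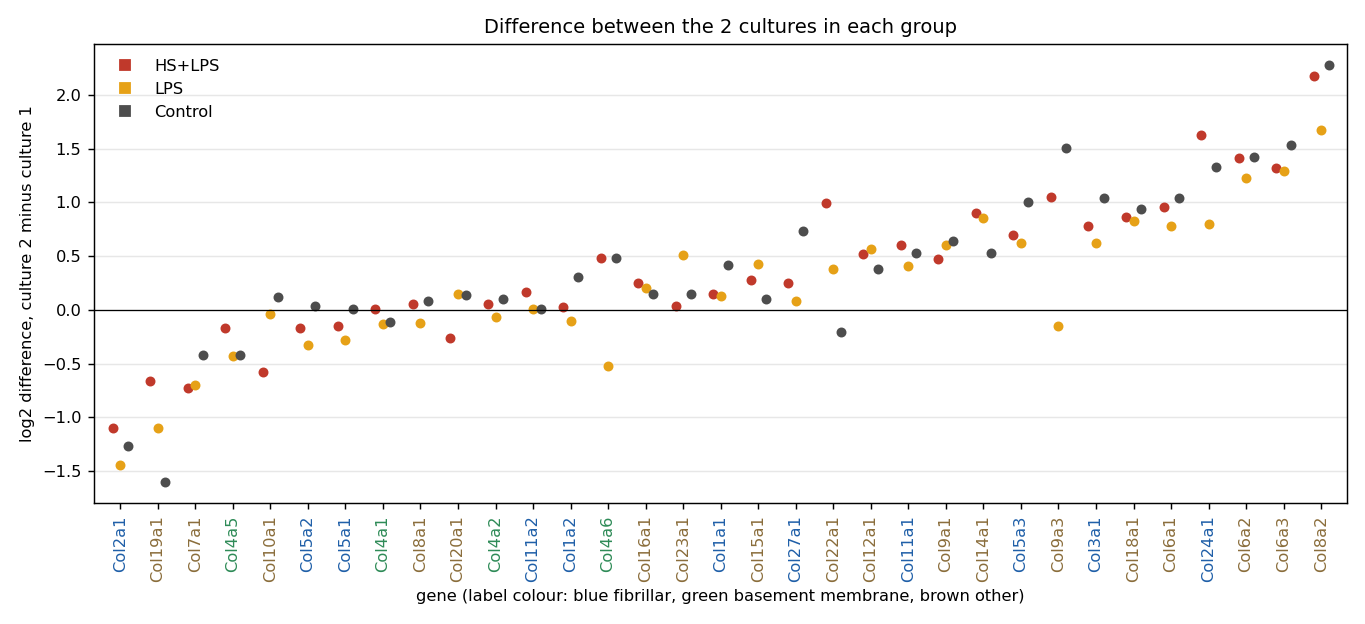
Difference on the log2 scale between culture 2 and culture 1 within HS+LPS, LPS and Control (point colours), for the 33 tested chains in order of their mean difference. Points above 0 are higher in culture 2. Col8a2 and the type VI chains stand at the right with all 3 points above 0.5, and Col2a1, Col19a1 and Col7a1 at the left with all 3 below 0.

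Other genes moved with the cultures as well. Dcn and Lum, small proteoglycans that coat collagen fibrils, read 1653, 1854 and 1862 (Dcn) and 1578, 1820 and 1699 (Lum) in culture 2 under HS+LPS, LPS and Control. In culture 1 they read 343.1, 543 and 333.3 (Dcn) and 138.4, 188 and 119.3 (Lum). Not all fibril partners moved this way: Fmod (-0.33) was higher in culture 1 without overlap, and Bgn differed by -0.09. Over the 12 tested receptors and fibril partners listed below, the median was 0.01. Of the 7 fibroblast markers measured, Pdgfra, Thy1 and Dcn were higher in culture 2, by 2.24, 1.31 and 2.16. Fn1 (-0.24) and S100a4 (-0.21) were higher in culture 1 without overlap, and Vim and Pdgfrb differed by -0.17 and -0.03. The median over these 7 markers was -0.03. Xist, expressed from an inactive X chromosome, read 380 to 497.6 in culture 2 and 6.333 to 12.38 in culture 1. Eif2s3y, on the Y chromosome, read 0.1142 to 2.334 in culture 2 and 368.1 to 394 in culture 1. The part of these differences in the chains' values was not tested, and with 1 embryo per culture sex and embryo cannot be told apart.

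The genes that modify, fold, process and cross-link the chains were counted from a list of 31, of which 27 had a probe set of a single symbol and 25 were tested. Without the block 0 of 25 passed in each comparison, and 3, 0 and 1 had an unadjusted p under 0.05 for HS+LPS against LPS, HS+LPS against Control and LPS against Control. Of all genes 1.35%, 0.178% and 0.147% passed in that order, and 16.8%, 16.2% and 4.87% had an unadjusted p under 0.05. With the block Serpinh1 rose and P4ha2 fell for HS+LPS against LPS, Serpinh1 rose for HS+LPS against Control, and 0 passed for LPS against Control. The counts of 2, 1 and 0 of 25 stand beside 19%, 17.1% and 2.74% of all genes called. The medians over the list were 0.14, 0.06 and -0.08 for HS+LPS against LPS, HS+LPS against Control and LPS against Control, beside -0.05, -0.09 and -0.05 for all genes. With quantile normalization they were 0.07, 0 and -0.04. Leaving out 1 array gave 0.08 to 0.17, 0.01 to 0.06 and -0.09 to -0.02.

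Serpinh1 (Hsp47) is the collagen chaperone of the endoplasmic reticulum and a heat shock protein. It read 4328 and 3920 in HS+LPS cells, 3379 and 2856 in LPS cells, and 3816 and 3063 in Control cells. HS+LPS was the highest group in both cultures and did not overlap the others. The difference from LPS was 0.41 (1.33-fold, SE 0.15; 0.36 in culture 2 and 0.46 in culture 1; limma adjusted p = 0.248, with the block 0.00617) and from Control 0.27 (adjusted p = 0.448, with the block 0.0354). With quantile normalization the differences were 0.23 and 0.16, and that against Control did not pass with the block. Without Control of culture 1 it was 0.11 against Control and without Control of culture 2 it was 0.43. Its promoter window, on chromosome 7, held 1 GGGCGG and 1 match to the NF-kB consensus and 0 matches to GAANNTTC.

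P4ha2, a catalytic subunit of prolyl 4-hydroxylase, which hydroxylates proline so that the helix is stable, read 689.5 and 724 in HS+LPS cells, 933.9 and 928.1 in LPS cells, and 738.4 and 725.6 in Control cells. LPS was above both other groups in both cultures. HS+LPS against LPS gave -0.40 (0.76-fold, SE 0.10; limma adjusted p = 0.134, with the block 0.00834) and LPS against Control 0.35 (adjusted p = 0.731, with the block 0.05). The LPS difference passed with the block and quantile normalization (adjusted p = 0.0366) and with the block and a pseudocount of 16 (adjusted p = 0.043). The other catalytic subunit P4ha1 read 858.4 and 837.2 in HS+LPS cells, 684.6 and 741.1 in LPS cells, and 705.2 and 757.5 in Control cells. It differed by 0.25 between HS+LPS and LPS and did not pass (adjusted p = 0.325, with the block 0.0568). Lox, which cross-links the secreted chains, differed by 0.16 between HS+LPS and LPS and by -0.07 between LPS and Control.

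Receptors and fibril partners were counted from a list of 13, of which 12 were tested. Without the block 0 of 12 passed in limma in each comparison, and 0 had an unadjusted p under 0.05. For HS+LPS against LPS, LPS against Control and HS+LPS against Control, 1.35%, 0.147% and 0.178% of all genes passed. An unadjusted p under 0.05 was found for 16.8%, 4.87% and 16.2% of all genes. With the block 2 fell and 0 rose for HS+LPS against LPS, 1 rose for LPS against Control, and 1 fell for HS+LPS against Control. These counts of 12 stand beside 12.6% of all genes lower, 2.04% higher and 12.1% lower in these comparisons. The genes called were the discoidin domain receptors Ddr1 and Ddr2, tyrosine kinases that bind collagen. Ddr1 read 1088 and 1569 in HS+LPS cells, 1405 and 2238 in LPS cells, and 1136 and 1660 in Control cells. Its differences were -0.44 for HS+LPS against LPS (limma adjusted p = 0.538, with the block 0.00488) and 0.37 for LPS against Control (adjusted p = 0.999, with the block 0.0352). Ddr2 read 479.7 and 383.1 in HS+LPS cells, 620.7 and 500.1 in LPS cells, and 622 and 472.1 in Control cells, with -0.38 against LPS (adjusted p = 0.422, with the block 0.0133) and -0.34 against Control (adjusted p = 0.491, with the block 0.0224). With the block and the mean of a gene's probe sets, 0 of these calls held. Without the block, leaving out single arrays gave Ddr1 -0.77 to -0.10 for HS+LPS against LPS and 0.03 to 0.70 for LPS against Control. It gave Ddr2 -0.54 to -0.21 for HS+LPS against LPS and -0.53 to -0.14 for HS+LPS against Control.

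Marker lists were set beside these values to check the cells. All 7 fibroblast markers measured were above the noise level on all 6 arrays, with summed signals of 20170 and 20480 in HS+LPS cells, 19460 and 20470 in LPS cells, and 22050 and 19600 in Control cells. One of them, Pdgfrb, fell with HS+LPS to 911.1 and 883.3, against 1549 and 1608 in LPS cells (limma adjusted p = 0.0277). Pdgfra fell by 0.96 between HS+LPS and LPS in the fit with the culture as a block (limma adjusted p = 0.00741), and did not pass without it (0.74). Of the 9 cartilage markers 4 were above noise on every array and Matn1 on none, and their sums were 384.1 and 281.4 in HS+LPS cells, 146.9 and 134.2 in LPS cells, and 148.2 and 163.1 in Control cells. Sox9, the transcription factor of the cartilage lineage, read 273.3 and 156.3 in HS+LPS cells, 49.61 and 39.14 in LPS cells, and 62.31 and 40.12 in Control cells (HS+LPS against LPS limma adjusted p = 0.0511, with the block 9.27e-05). Most of the cartilage sum in HS+LPS cells of both cultures was Sox9. Beside Sox9, the tested chains of types II, IX and XI gave 0.27 for Col2a1, 0.66 for Col9a1, 0.12 for Col9a3, -0.02 for Col11a1 and 0.25 for Col11a2 in the same comparison. The part of Sox9 in these values was not tested.

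Epithelial markers summed to 197.2 and 220.7 in HS+LPS cells, 132.2 and 124.7 in LPS cells, and 95.67 and 148.9 in Control cells, with Cdh1 at or under noise on all arrays. HS+LPS had the highest sum in both cultures, with Krt19 its largest part at 71.16 and 131.4. Between HS+LPS and LPS, Krt8, Krt18 and Krt19 differed by 1.11, 1.25 and 0.88, Epcam by 0.10 and Krt5 by -1.03. Krt18 (limma adjusted p = 0.28, with the block 0.0469) and Krt19 (0.505, with the block 0.011) passed only with the block, where 19% of all genes passed. Krt8, Epcam and Krt5 passed in neither fit. Macrophage markers summed to 140 and 187.4 in HS+LPS cells, 196.8 and 290.2 in LPS cells, and 164.5 and 231.1 in Control cells, with Fcgr1 at noise. Of these Cd14, a co-receptor for LPS named here after its values were seen, fell with HS+LPS relative to LPS (log2 difference -1.50, limma adjusted p = 0.0305), with 34.93 and 35.01 in HS+LPS cells, 93.17 and 117.7 in LPS cells, and 64.2 and 58.03 in Control cells. Endothelial markers summed to 23.68 to 58.38 over the arrays, with Pecam1, Tie1 and Vwf at noise. Skeletal muscle markers summed to 378.4 and 448.3 in HS+LPS cells, 258.4 and 312.9 in LPS cells, and 300.7 and 354.5 in Control cells. HS+LPS was again the highest group in both cultures, but most of each sum was Acta1, at 248.1 and 377 in HS+LPS cells. Myh3 was at noise, and Myod1 and Myog were above it on 1 array each. Between HS+LPS and LPS, Acta1 differed by 0.53 (limma adjusted p = 0.378, with the block 0.00886), Des by 0.54 and Ckm by -0.11. Bone markers summed to 27.46 to 40.73 and neural markers to 244.3 to 325.3. The part of cells other than fibroblasts in the chains' values was not tested.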

How the data were processed

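The deposited table held linear signal intensities for 45101 probe sets on 6 arrays. Their mean after trimming 2% at each end was 100.001 on each array; the software was not given in the sources used here. The platform annotation gave 1 symbol for 34958 probe sets, several for 932 and none for 9211.

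The deposited intensities were analysed as log2(intensity + 3.37), a pseudocount equal to their 25th percentile. The filter dropped probe sets whose mean log2 signal fell in the lowest 40 percent and kept 27024. Groups were fitted with limma 3.58.1 in R 4.3.3 (eBayes with trend, 3 residual degrees of freedom), threshold adjusted p under 0.05; the procedure was tested on simulated data. Culture numbers pair the arrays, since each culture is 1 embryo, per the labels. Deviations from group means correlated within a culture at 0.53 (HS+LPS and LPS), 0.57 (HS+LPS and Control) and 0.62 (LPS and Control). The fit with the culture as a block (2 residual degrees of freedom) lowered the median standard error of the chains to 0.11, against 0.28 without it.

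Members and lists were chosen with earlier results of these data known. Array values are given for Col1a1, Col1a2, Col3a1, Col4a1, Col4a2, chains past the threshold in either fit or with an unadjusted p under 0.05, and chains above 500 in any group. Partner genes are named where past the threshold in either fit; other names were chosen after their values were seen. Alternatives changed the pseudocount, filter, scaling, probe set rule, variance prior and design, or left out 1 array. Promoter windows and coordinates are RefSeq's (GRCm38).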

Additional observations from a re-analysis of the deposited data

How the results depend on the processing

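Without the block, the 6 counts of called chains and biosynthesis genes were 0 under every alternative run, leave-one-out fits included (0 to 0 for each count). With the replicate block, which pairs the arrays of a culture, 4 chains passed for HS+LPS against LPS, 2 for LPS against Control and 2 for HS+LPS against Control; for biosynthesis genes these counts were 2, 0 and 1. Settings that join the block to another choice were added after seeing the data, and the share of all genes passing in them was not counted. For HS+LPS against LPS the chains came to 4 and the biosynthesis genes to 2 in all of them. For LPS against Control the chains came to 2 with quantile normalization, 1 with median centring, 2 with a pseudocount of 16 and 1 with the mean of a gene's probe sets, and the biosynthesis genes to 1, 0, 1 and 0. For HS+LPS against Control the chains came to 3, 2, 3 and 3, and the biosynthesis genes to 0, 1, 1 and 1. Single-gene values under alternatives were taken only for genes and comparisons that passed with the replicate block. Their passes in that setting were thus fixed by the choice. Of these values 227 kept their side of the threshold, 66 passed it and 4 turned direction. For chains and biosynthesis genes every pass was in a setting with the block. All 4 that turned were of Col18a1: 0.06 and 0.04 for HS+LPS against LPS, and -0.03 and -0.08 for LPS against Control, each without 1 array and without the block. Leaving out each array in turn gave Col18a1 -0.80 to 0.06 and -0.08 to 0.86 in these comparisons. In such fits the chains' median log2 difference ranged from -0.03 to 0.28 for HS+LPS against LPS, -0.18 to 0.16 for LPS against Control and -0.03 to 0.19 for HS+LPS against Control. A fit that lacks 1 array of a compared group and has no block sets 1 culture against both, so the difference between the cultures enters it. Within culture 2 and culture 1 Col18a1 differed by -0.36 and -0.39 for HS+LPS against LPS, and by 0.33 and 0.44 for LPS against Control. Other causes of these shifts were not tested.

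With 2 cultures a fit rests on 3 or 2 residual degrees of freedom, and chains that did not pass can still differ within the intervals given. Scaling to a common mean hides a change in total mRNA. Signals near the noise level of 6 to 7.67, as for Col20a1, carry little precision, and the added pseudocount understates their folds.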
